A study of Mus musculus with 1 sample.

Results

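Inhibitory checkpoint receptors were followed in peripheral T cells of an SCLC mouse, with most attention to the CD4 side and to how many of them were found in the same cell. The 9 receptors were Pdcd1, Ctla4, Lag3, Havcr2, Tigit, Cd160, Btla, Cd200 and Vsir, taken by name from the 32285 genes of the expression matrix. All 9 had unique molecular identifiers (UMIs), the tags that mark captured RNA molecules, and together they had 2874 UMIs over the 1600 barcodes counted as cells. Each barcode marks the droplet of a cell.

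Inhibitory receptors sit on the surface of T cells and weaken signalling from the T cell receptor after a cell has met its antigen. Pdcd1 encodes PD-1, Ctla4 competes with Cd28 for the ligands Cd80 and Cd86, Tigit competes with Cd226 for Pvr, and Lag3 binds MHC class II. Lasting antigen contact is known to place several of them on the same cell in exhausted CD8 T cells. Several are also known together from follicular helper, anergic and regulatory CD4 T cells, whereas Btla and Vsir (VISTA) are known from resting lymphocytes.

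The blood came from 1 vehicle-treated mouse of the autochthonous SCLC model, which carries conditional alleles of Rb1 and Trp53 on a C57BL/6 background, deleted in the lung by intratracheal Adeno-Cre virus, and which received PBS every 3 days. From 150 µl of blood, red cells were lysed and T cells were enriched by negative selection. Gene expression and T cell receptor libraries were then made from the same droplets. With 1 library of 1 mouse the spread between animals is unknown, and no difference was tested. All intervals are exact 95% intervals, Poisson for UMI sums and Clopper-Pearson for shares, and cover counting error only. Where no barcode held a UMI, the share allowed is instead 3 counts over the number of barcodes, and it limits barcodes with a UMI at this depth, not cells expressing the gene.

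Barcodes with at least 1331 UMIs were counted as cells and sorted by the UMIs they held. The Cd4 class was 354 barcodes with Cd4 UMIs and none of Cd8a, Cd8b1 or Foxp3, and the Foxp3 class was 32 barcodes with Foxp3 UMIs and none of Cd8a or Cd8b1. Barcodes with Cd8a or Cd8b1 UMIs and none of Cd4 or Foxp3 were split into 608 without and 106 with a UMI of Gzmk, Gzma or Gzmb, the granzymes of cytotoxic cells. The median depth was 3363 UMIs in the Cd4, 3548 in the Foxp3, 5621 in the granzyme-less Cd8 and 5412 in the granzyme Cd8 class. Deeper barcodes hold more genes, so shares of barcodes were also taken after thinning each barcode to 2500 UMIs, which left 268, 28, 553 and 101 barcodes. Of the 32 Foxp3 barcodes, 15 held a Cd4 UMI and 21 rested on 1 Foxp3 UMI. Regulatory T cells whose Foxp3 RNA was missed therefore cannot be told apart from other cells of the Cd4 class.

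The labelled cell type was checked against its markers. A Cd3 UMI was found in 332 of 354 Cd4, 30 of 32 Foxp3, 571 of 608 granzyme-less Cd8 and 104 of 106 granzyme Cd8 barcodes. As a background, 79 barcodes with Cd79a and Cd79b UMIs and no Cd3 UMI served as B cells, with a median of 3699 UMIs and no clonotype. None of them held a UMI of Pdcd1, Lag3, Havcr2, Tigit or Cd160, and 0 of 79 allows a share of up to 3.80%. Ctla4 was found in 2 of the 79 (2.53%). Btla was the exception, with 153 UMIs in 57 of the 79 B barcodes (72.2%). Neutrophil genes were found in 1 of the 32 Foxp3 barcodes, which held 241 S100a8 UMIs, and in the granzyme-less Cd8 class, where 4 of 608 barcodes held 248 S100a8 UMIs and 7 held 289 S100a9 UMIs. B cell genes were found as well. Ighm was found in 110 of 354 Cd4, 18 of 32 Foxp3, 273 of 608 granzyme-less Cd8 and 14 of 106 granzyme Cd8 barcodes. Cd79b was found in 2, 1, 57 and 4 of them, and Cd79a in 3, 1, 13 and 0, in the same order. The part of these barcodes in the results was not tested.

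In RefSeq on GRCm38.p6, Pdcd1 lies on chr1:94038305-94052553, Ctla4 on chr1:60909025-60915832 and Lag3 on chr6:124904359-124912434. Havcr2 lies on chr11:46454931-46481255 and Cd160 on chr3:96798763-96829351. Chromosome 16 carries Tigit (chr16:43626137-43665125), Btla (chr16:45223705-45252895) and Cd200 (chr16:45382111-45409060). Tigit overlaps Zbtb20 and Mir568, and Vsir (chr10:60346851-60430294) overlaps Cdh23 and Gm17455. Whether counting used strand is not given in the sources used here, so the values of Tigit and Vsir are less certain than those of the other members.

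The 250 bases before a RefSeq transcript start are shown for Pdcd1, Ctla4 and Tigit, which were found together in Cd4 barcodes, and for Btla, whose UMIs did not gather in the same barcodes. RefSeq promoters on GRCm38.p6 matched 8 of the 9 members, all but Lag3. For Tigit and Btla the transcript start used lies inside the gene's span given above, so these windows lie within the gene. They are written 5′ to 3′, and capitals mark the core motif of NFAT, a factor activated by calcium signals from the T cell receptor, searched as GGAAA on both strands (TTTCC on the other).
Pdcd1, chr1:94052554-94052803, minus strand: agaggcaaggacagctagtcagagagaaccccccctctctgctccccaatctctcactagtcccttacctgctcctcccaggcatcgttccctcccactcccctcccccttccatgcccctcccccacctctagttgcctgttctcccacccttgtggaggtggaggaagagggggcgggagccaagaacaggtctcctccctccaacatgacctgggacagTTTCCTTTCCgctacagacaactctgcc
Ctla4, chr1:60908775-60909024, plus strand: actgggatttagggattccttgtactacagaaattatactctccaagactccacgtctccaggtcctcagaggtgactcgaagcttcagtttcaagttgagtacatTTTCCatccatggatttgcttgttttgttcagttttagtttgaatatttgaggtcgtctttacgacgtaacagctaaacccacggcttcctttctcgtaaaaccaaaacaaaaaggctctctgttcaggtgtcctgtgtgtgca
Tigit, chr16:43664185-43664434, minus strand: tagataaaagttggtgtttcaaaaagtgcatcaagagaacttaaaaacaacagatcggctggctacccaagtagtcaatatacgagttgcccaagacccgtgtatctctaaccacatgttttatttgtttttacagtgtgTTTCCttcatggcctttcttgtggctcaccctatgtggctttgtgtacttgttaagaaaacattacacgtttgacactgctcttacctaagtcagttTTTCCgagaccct
Btla, chr16:45224087-45224336, plus strand: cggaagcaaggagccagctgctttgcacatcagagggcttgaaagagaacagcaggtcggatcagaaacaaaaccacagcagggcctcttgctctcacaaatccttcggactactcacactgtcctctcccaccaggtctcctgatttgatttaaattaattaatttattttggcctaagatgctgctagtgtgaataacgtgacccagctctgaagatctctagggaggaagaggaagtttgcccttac
The motif stood 2 times before Pdcd1, 1 time before Ctla4, 2 times before Tigit and not in the window before Btla. It is a short motif, held by 55.6% of all 32851 promoter windows of that length. An AP-1 motif, TGANTCA, and a forkhead motif, TGTTTAC, were searched on both strands in the same windows and had no match in these 4. They were held by 6.75% and 3.17% of all windows. In windows not shown, Havcr2, Cd200 and Vsir had no NFAT motif. Of the Cd160 windows only chr3:96814522-96814771 held it, 1 time. The 4 windows shown were chosen with the co-detection known, and a link between motif and co-detection was not tested. A match is a description of the letters, not a site.

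The 9 receptors differed in where they were found. Levels are UMIs of a gene per 10000 UMIs of all barcodes of a class, and they were compared between classes for 1 gene at a time, since they were not scaled for gene length. Ctla4 had 3.74 (2.80 to 4.89) in Foxp3, 0.693 (0.562 to 0.847) in Cd4, 0.253 (0.145 to 0.411) in granzyme Cd8 and 0.224 (0.180 to 0.276) in granzyme-less Cd8 barcodes, and only the last pair of neighbours in that order had overlapping intervals. Pdcd1 had 0.759 (0.559 to 1.01) in granzyme Cd8, 0.397 (0.299 to 0.517) in Cd4, 0.282 (0.0768 to 0.722) in Foxp3 and 0.0277 (0.0138 to 0.0496) in granzyme-less Cd8 barcodes. The Foxp3 value of Pdcd1 rests on 4 UMIs and overlaps those of Cd4 and granzyme Cd8 barcodes.

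Tigit had 1.55 (1.26 to 1.89) in granzyme Cd8 and 1.41 (0.861 to 2.18) in Foxp3 barcodes, which overlap, then 0.361 (0.268 to 0.476) in Cd4 and 0.0680 (0.0448 to 0.0990) in granzyme-less Cd8 barcodes. Lag3 had 0.458 (0.307 to 0.658) in granzyme Cd8, 0.260 (0.182 to 0.360) in Cd4, 0.141 (0.0171 to 0.509) in Foxp3 and 0.0101 (0.00275 to 0.0258) in granzyme-less Cd8 barcodes. The first 3 of these Lag3 values had overlapping intervals. Btla had 1.43 (1.24 to 1.64) in Cd4, 0.987 (0.539 to 1.66) in Foxp3, 0.534 (0.465 to 0.611) in granzyme-less and 0.190 (0.0980 to 0.331) in granzyme Cd8 barcodes. Vsir lay between 1.39 and 1.62 in all 4 classes with overlapping intervals. Cd160 was on the Cd8 side, with 0.379 (0.243 to 0.564) with and 0.169 (0.131 to 0.214) without granzyme, 3 UMIs in Cd4 and 0 in Foxp3 barcodes. Havcr2, which encodes TIM-3, had 0 UMIs in the 354 Cd4 barcodes, which allows a share of up to 0.847%.

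**Figure D1:**
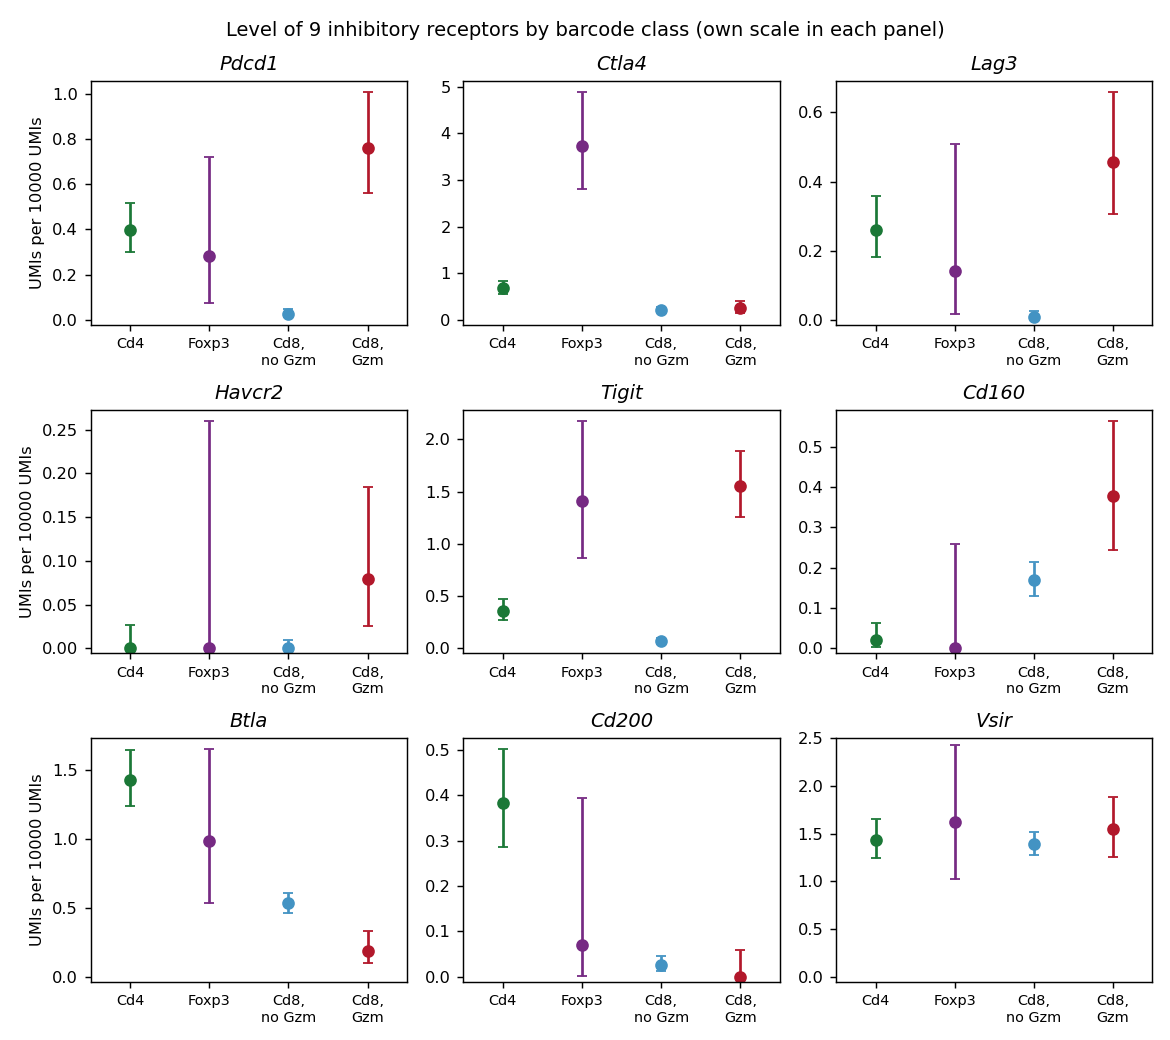
UMIs per 10000 UMIs of each receptor, pooled over the barcodes of the Cd4, Foxp3, granzyme-less Cd8 (no Gzm) and granzyme Cd8 (Gzm) class of 1 mouse, with exact 95% Poisson intervals as bars and an own scale in each panel. Ctla4 was highest in Foxp3 barcodes (3.74), Pdcd1, Lag3 and Tigit were lowest in granzyme-less Cd8 barcodes, and Vsir lay between 1.39 and 1.62 in all 4 classes.

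Pdcd1, Ctla4, Lag3 and Tigit were found in few Cd4 barcodes, with several UMIs in some of them. Without thinning, Pdcd1 was found in 26 of 354 Cd4 barcodes (7.34%), with 55 UMIs and up to 7 in a barcode. Ctla4 was found in 50 (14.1%), with 96 UMIs and up to 10 in a barcode. Lag3 had 36 UMIs in 13 barcodes (3.67%), up to 10 in a barcode, and Tigit 50 UMIs in 20 (5.65%). The Lag3 share lies within what 0 of 79 B barcodes allows. By contrast, Btla was found in 133 Cd4 barcodes (37.6%) and Vsir in 137 (38.7%), with at most 5 and 4 UMIs in a barcode. After thinning, the shares were 6.72% for Pdcd1, 11.6% for Ctla4, 2.61% for Lag3, 4.48% for Tigit, 26.5% for Btla and 27.6% for Vsir. Free RNA, taken from 20532 barcodes of 10 to 50 UMIs and set at 5% of each barcode, would give 2.41 of the 96 Ctla4 and 0.332 of the 55 Pdcd1 UMIs in the class.

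Against granzyme-less Cd8 barcodes, 6 of the 8 members with at least 20 UMIs in both classes together were at least 2 times higher in Cd4 barcodes and 1 was at least 2 times lower. Among all 10030 genes with as many UMIs, 7.16% were higher and 3.95% lower by that much. A member that reached 20 UMIs only through the class where it is high had to differ. Lag3, Cd200 and Pdcd1, with 4, 10 and 11 UMIs in granzyme-less Cd8 barcodes, were such members, so their calls as higher were fixed in advance. The Cd8 side had also been stripped of its granzyme barcodes, while the Cd4 class was not split by granzyme. Those granzyme barcodes held 48 Pdcd1, 29 Lag3 and 98 Tigit UMIs, against 11, 4 and 27 in granzyme-less ones. The ratios below are therefore not those of Cd4 over all Cd8 barcodes, which were not compared. Lag3 was 25.8 times higher in Cd4 barcodes (9.25 to 99.8), from 36 against 4 UMIs. Cd200, a ligand that restrains cells carrying Cd200r1, was 15.2 times higher (7.65 to 33.5), and Pdcd1 14.3 times (7.42 to 30.4), from 55 against 11 UMIs. Tigit was 5.31 times higher (3.26 to 8.82), Ctla4 3.09 times (2.29 to 4.17) and Btla 2.68 times (2.19 to 3.26). Vsir, at 1.44 and 1.39 UMIs per 10000, had a ratio of 1.03 (0.873 to 1.21). Cd160, a receptor that shares the ligand Tnfrsf14 with Btla, went the other way, with 3 UMIs in Cd4 and 67 in granzyme-less Cd8 barcodes, a Cd4 to Cd8 ratio of 0.128 (0.0258 to 0.391). The sizes depended on how barcodes were pooled and chosen. For means over barcodes the ratio was 5.74 for Pdcd1, 15.5 for Lag3 and 0.225 for Cd160. Pdcd1 had 31.8 among barcodes with a clonotype, and with at least 2 coreceptor UMIs Tigit had 8.55 and Cd160 0.0720.

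The regulatory T cell gene Foxp3 marked the barcodes with the most Ctla4. In the Foxp3 class, Ctla4 had 53 UMIs in 14 of 32 barcodes, or 3.74 UMIs per 10000 (2.80 to 4.89), which was 5.39 times the level in Cd4 barcodes (3.78 to 7.61). Tigit had 20 UMIs in 6 barcodes and was 3.90 times higher (2.20 to 6.68). Cd200 had 1 UMI against 53 in the Cd4 class, a ratio of 0.184 (0.00458 to 1.07) whose interval reaches past 1. In all, 2 of the 7 members with at least 20 UMIs were at least 2 times higher and 1 was lower, where 5.92% of all 7906 genes were higher and 16.8% lower. Pdcd1 with 4 UMIs in 3 barcodes, Lag3 with 2 in 1, Btla with 14 in 8 and Vsir with 23 in 14 had ratios between 0.542 and 1.13 with intervals that include 1. The 13 listed regulatory T cell genes were given with them, and 8 of the 9 with enough UMIs were at least 2 times higher, with a median ratio of 4.57 where the median of all genes was 0.930. Ikzf2, which encodes Helios, had 101 UMIs and was 6.44 times higher (4.96 to 8.34).

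How firmly a barcode was marked moved with the level of both receptors. In the 11 barcodes with 2 or more Foxp3 UMIs, Ctla4 had 6.78 UMIs per 10000 (4.75 to 9.38) and Tigit 3.01 (1.72 to 4.89). In the 21 barcodes with 1 Foxp3 UMI, Ctla4 had 1.92 (1.12 to 3.07) and Tigit 0.451 (0.123 to 1.15). The 15 Foxp3 barcodes with a Cd4 UMI had 2.30 for Ctla4 and 0.512 for Tigit, and the 17 without had 5.49 and 2.51. Relative to Cd4 barcodes, the Foxp3 barcodes with a Cd4 UMI were therefore 3.32 times higher in Ctla4 but 1.42 times in Tigit, which no longer differed by 2 times. Cd200, Pdcd1 and Btla had ratios of 0.334, 0.322 and 0.358 there, but from only 1, 1 and 4 UMIs. Their levels were 0.128 (0.00324 to 0.713) for both Cd200 and Pdcd1 and 0.512 (0.139 to 1.31) for Btla. These intervals overlap those of Cd4 barcodes. Counts of the Foxp3 class are small, and 1 barcode alone held 12 of its 53 Ctla4 UMIs.

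Among Cd8 barcodes, a granzyme UMI went with Pdcd1, Lag3 and Tigit. Tigit had 98 UMIs in 44 of 106 granzyme barcodes and 27 in 25 of 608 without, a ratio of 22.8 (14.7 to 36.3). Pdcd1 had 48 against 11 UMIs and a ratio of 27.4 (14.0 to 58.4) that was 12.8 for means over barcodes and 51.3 among barcodes with a clonotype, and Lag3 29 against 4 and 45.5 (16.0 to 178.0). Cd160 was 2.25 times higher (1.35 to 3.63), but 1.73 times among barcodes with a ribosomal share of at least 10%. It was 1.85 times higher when the barcode with the most Cd160 UMIs was left out of both classes. Btla was lower with granzyme, at 0.190 against 0.534 UMIs per 10000 (ratio 0.355, 0.181 to 0.633). Havcr2 was seen with 5 UMIs in 5 granzyme barcodes and 0 in 608 without, too few for a ratio by the 20 UMI rule. Ctla4 (1.13, 0.618 to 1.93) and Vsir (1.11, 0.887 to 1.38) had ratios near 1. In all, 4 of 7 members with enough UMIs were higher and 1 was lower, against 7.36% and 10.2% of all 9689 genes. Pdcd1 and Lag3, with 11 and 4 UMIs without granzyme, reached 20 UMIs only through the granzyme class and so had to be called higher.

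Set side by side, Foxp3-less Cd4 barcodes and granzyme Cd8 barcodes differed in the level of several receptors. The latter had been picked by granzyme, while the Cd4 class was left mixed. Pdcd1 had 0.397 UMIs per 10000 in the former and 0.759 (0.559 to 1.01) in the latter, and the intervals did not overlap. Among barcodes with a ribosomal share of at least 10% they did, at 0.507 (0.376 to 0.669) and 0.783 (0.573 to 1.04). Intervals of Tigit, Ctla4 and Btla stayed apart among those barcodes. Over all barcodes of both classes Tigit differed more than Pdcd1, with 0.361 against 1.55 (1.26 to 1.89). Lag3 had 0.260 against 0.458 (0.307 to 0.658), with overlapping intervals. Ctla4, at 0.693 against 0.253 (0.145 to 0.411), Btla, at 1.43 against 0.190 (0.0980 to 0.331), and Cd200, at 0.383 against 0 in 106 barcodes, were higher on the CD4 side. A count of 0 of 106 allows a share of up to 2.83% for Cd200.

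The share of ribosomal protein UMIs in a barcode moved with several receptors in the Cd4 class. It was under 10% in 142 of the 354 Cd4 barcodes, 9 of 32 Foxp3, 201 of 608 granzyme-less Cd8 and 12 of 106 granzyme Cd8 barcodes. Btla had 2.83 UMIs per 10000 (2.33 to 3.40) in Cd4 barcodes with a low ribosomal share and 0.862 (0.689 to 1.07) in the others. In granzyme-less Cd8 barcodes it had 1.16 (0.920 to 1.44) and 0.399 (0.333 to 0.473). Pdcd1, Lag3 and Tigit went the other way in the Cd4 class, with 0.125, 0.0501 and 0.100 UMIs per 10000 at a low and 0.507, 0.345 and 0.467 at a higher ribosomal share. The intervals of Ctla4, Cd200 and Vsir overlapped between both sets. The comparisons were repeated among barcodes with a ribosomal share of at least 10%. All 6 members named as higher in Cd4 than in granzyme-less Cd8 barcodes were at least 2 times higher there too. Between Foxp3 and Cd4 barcodes 5 members in place of 3 then differed by 2 times. Pdcd1 was 1 of these, with a ratio of 0.169 from 1 UMI in the Foxp3 class. Between granzyme and granzyme-less Cd8 barcodes it was 4 members in place of 5. The share of all genes past 2 times was not counted among these barcodes, so these counts are no result about the members. Why they moved was not tested.

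**Figure D2:**
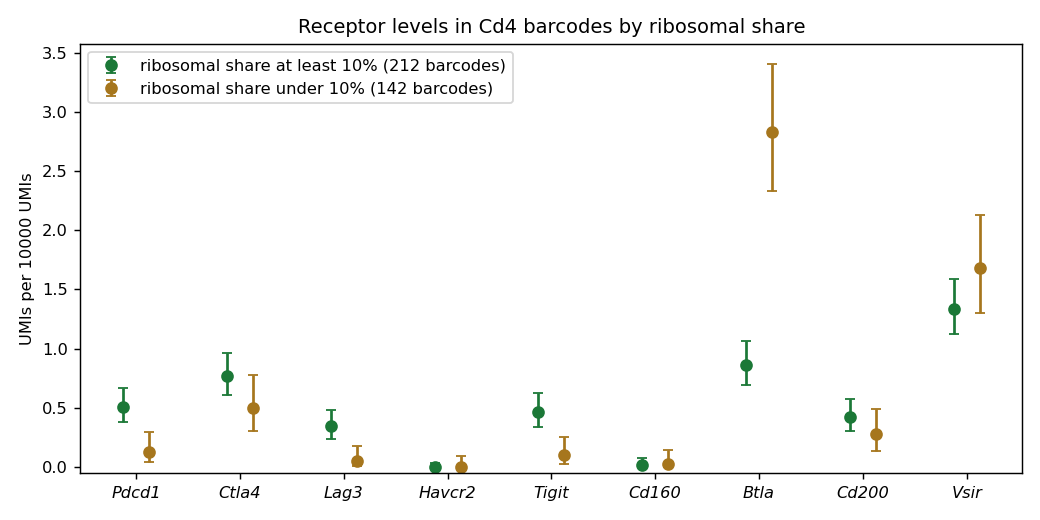
UMIs per 10000 UMIs of each receptor in Cd4 barcodes with a ribosomal share of at least 10% (green, 212 barcodes) and under 10% (brown, 142 barcodes), with exact 95% Poisson intervals. Btla was higher at a low share (2.83 against 0.862), and Pdcd1, Lag3 and Tigit were higher at the higher share.

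Co-detection was then counted at equal depth. In 268 Cd4 barcodes thinned to 2500 UMIs, a UMI of any of the 9 members was found in 152 (56.7%, 50.6% to 62.7%) and UMIs of 2 or more in 55 (20.5%, 15.9% to 25.9%). Among Foxp3 barcodes, 19 of 28 held any member (67.9%, 47.6% to 84.1%) and 11 held 2 or more (39.3%, 21.5% to 59.4%). Any member was found in 269 of 553 granzyme-less Cd8 barcodes (48.6%) and in 74 of 101 with granzyme (73.3%). Without thinning, the shares with any member were 72.3%, 78.1%, 75.0% and 88.7% in the same order, so these shares depended on depth.

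Pdcd1, Ctla4, Lag3 and Tigit gathered in the same Cd4 barcodes. These 4 were set apart from the other members after their values had been seen. Of 268 thinned Cd4 barcodes, 45 held a UMI of at least 1 of the 4 and 17 (6.34%, 3.74% to 9.96%) held 2 or more, where the product of the separate shares gives 5.47 barcodes. All 6 barcodes with 3 of the 4 had a ribosomal share of at least 10%, and among the 181 Cd4 barcodes with such a share 15 held 2 or more where 5.33 would follow from the shares. In Foxp3 barcodes it was 5 of 28, with 3.17 from the shares. In granzyme Cd8 barcodes 14 of 101 held 2 or more (13.9%, 7.79% to 22.2%), close to the 11.4 that follow from the shares. Cd8 barcodes had already been split by granzyme, which went with Pdcd1, Lag3 and Tigit, while the Cd4 class was left mixed. The granzyme-less Cd8 class had 1 such barcode in 553 (0.181%, 0.00458% to 1.0%).

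**Figure D3:**
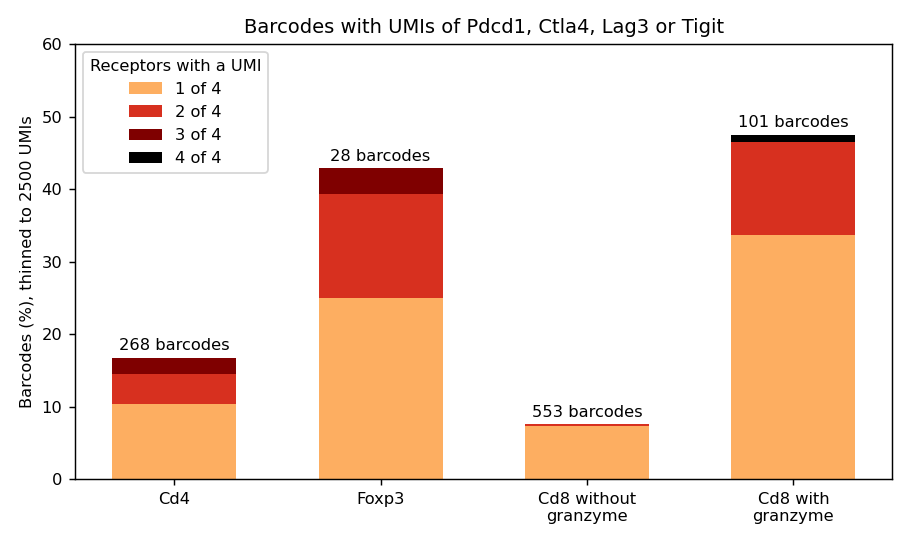
Percent of barcodes in each class, thinned to 2500 UMIs, with UMIs of 1, 2, 3 or 4 of Pdcd1, Ctla4, Lag3 and Tigit. Cd4 barcodes with 2 or more were 17 of 268, against 1 of 553 in granzyme-less Cd8 and 14 of 101 in granzyme Cd8 barcodes.

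Each of the 6 pairs among the 4 receptors was found in the Cd4 class more often than the separate shares give. Pdcd1 and Ctla4 were found together in 9 barcodes, where the shares give 2.08. Of the 18 barcodes with Pdcd1, 50% (26.0% to 74.0%) held Ctla4, against 8.80% (5.60% to 13.0%) of the 250 without. Pdcd1 and Tigit were found together in 6 barcodes (0.806 from the shares) and Pdcd1 and Lag3 in 5 (0.470). Of the 7 barcodes with Lag3, 5 held Pdcd1. Ctla4 and Lag3 shared 4 barcodes (0.810), Ctla4 and Tigit 3 (1.39) and Lag3 and Tigit 2 (0.313). The ratio of found to expected was between 2.16 and 10.6, and over all 6 pairs 29 were found where 5.87 would follow. These numbers are small and the 6 pairs are not independent. The 29 pairs came from 17 barcodes, and each of the 6 barcodes with 3 receptors counts in several pairs. Over 12 other settings the lowest ratio of any of the 6 pairs was 1.68, for Ctla4 and Tigit with at least 2 coreceptor UMIs. Among these settings, other UMI limits and stricter Foxp3 rules could not change the thinned Cd4 barcodes.

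Pairs with Btla or Vsir lay closer to the product of the shares. Btla and Vsir were found together in 21 Cd4 barcodes (19.6 from the shares), Ctla4 and Btla in 8 (8.21), Ctla4 and Vsir in 6 (8.56) and Pdcd1 and Btla in 3 (4.77). Of the 22 other pairs, 10 were found more often than the shares give, with a median ratio of 0.838 and 79 found where 69.2 would follow. The 3 of them found at least 2 times as often were those of Cd200 with Ctla4, Tigit and Pdcd1, in 4, 2 and 2 barcodes. Vsir was found in 8 of 18 barcodes with Pdcd1 and 6 of 12 with Tigit, against 26.4% and 26.6% of the Cd4 barcodes without them. In granzyme Cd8 barcodes the 6 pairs of the 4 receptors came to 19 where 13.5 would follow, with a median ratio of 1.49 against 5.66 in the Cd4 class. Pdcd1 and Tigit were there found together in 6 barcodes (5.05 from the shares) and Pdcd1 and Lag3 in 2 (2.19). The expected numbers of these classes are not alike, since Cd8 barcodes had been split by granzyme and Cd4 barcodes had not. Pairs over all Cd8 barcodes together were not counted, so whether gathering differs between Cd4 and Cd8 barcodes was not tested. In the Foxp3 class all 5 thinned barcodes with Tigit also held Ctla4, which was found in 9 of 28.

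**Figure D4:**
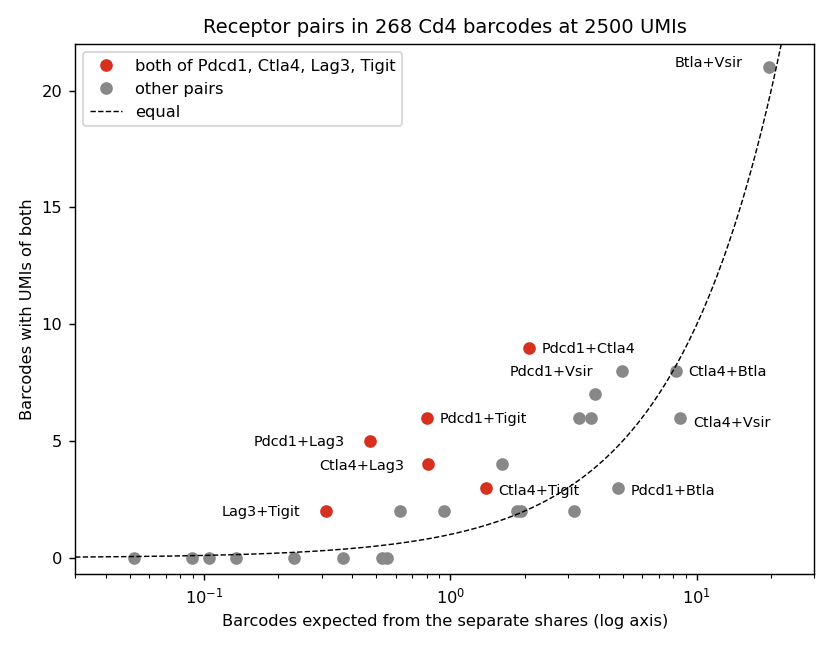
Number of the 268 thinned Cd4 barcodes with UMIs of both receptors of a pair (vertical axis) against the number that the product of the separate shares gives (horizontal log axis), for 28 pairs of the 8 members with UMIs there. The 6 pairs among Pdcd1, Ctla4, Lag3 and Tigit (red) lie above the line of equal numbers, and Btla with Vsir lies close to it (21 and 19.6).

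Over all 354 Cd4 barcodes without thinning, 28 held 2 or more of the 4 receptors, 43 held 1 and 283 held none. The 28 barcodes had between 2 and 36 UMIs of the 4 (median 4) and a median of 4093 UMIs in all, against 3250 in the 283. Ctla4 was found in 21, Pdcd1 in 20, Tigit in 14 and Lag3 in 11 of them, 8 held 3 or 4 and 2 held all 4. Of the 28, 26 had a clonotype, and these belonged to 24 clonotypes. Granzyme UMIs were found in 2 of the 28, Ccl5 in 8 and Il2ra, the receptor chain CD25, in 2. Because the set was drawn by these receptors, what follows describes it and tests nothing. A ribosomal share under 10% was found in 4 of the 28 and in 121 of the 283 barcodes. Most ratios below were not matched for it. Between the 28 and the 283 barcodes, 9.76% of 7286 genes with at least 20 UMIs were at least 2 times higher and 19.5% at least 2 times lower.

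Listed genes of regulatory T cells were higher in the 28 barcodes. By the rule of the Cd4 class none of these could hold a Foxp3 UMI, so cells whose Foxp3 RNA was missed may be among them. All 6 of the 13 listed genes that had at least 20 UMIs were at least 2 times higher, with a median ratio of 6.15 where the median of all genes was 0.933. Nrp1, a semaphorin receptor, had 35 UMIs in 16 of 28 and 33 UMIs in 17 of 283 barcodes, a ratio of 8.16 (4.93 to 13.6). Ikzf2 had 53 UMIs in 13 of 28 and 52 in 16 of 283, a ratio of 7.85 (5.25 to 11.7), and with a ribosomal share of at least 10% in both sets the ratio was 41.5, from 51 against 7 UMIs. Tnfrsf4, which encodes the costimulator OX40, was 6.23 times higher (3.09 to 12.4), Capg 6.06 times and Tnfrsf18 2.41 times. Itgae, found in 7 of 32 Foxp3 barcodes, was found in none of the 28, which allows a share of up to 10.7%.

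Several follicular helper and anergy genes were higher in the same set. Of 11 listed genes, 7 had enough UMIs, 4 of these were at least 2 times higher and 1 was lower. Maf, a transcription factor of follicular helper and interleukin-10 producing cells, had 50 UMIs in 16 of 28 and 26 in 17 of 283 barcodes, a ratio of 14.8 (9.04 to 24.8). Izumo1r, which encodes the folate receptor FR4 of regulatory and anergic CD4 T cells, was 5.34 times higher (3.34 to 8.44) and stands on both lists. Cxcr5, the chemokine receptor of follicular helper cells, was 3.85 times higher (1.52 to 9.02), and Nt5e, the ectonucleotidase CD73, 2.65 times (1.51 to 4.48). Il21, a follicular helper cytokine, fell below 20 UMIs, with 7 UMIs in 6 of the 28 and 0 in the 283. Bcl6, which directs follicular helper cells, was the lower one, with 0 against 24 UMIs, and the interval of its ratio (0 to 1.28) includes 1. With a ribosomal share of at least 10% in both sets, 6 of the 11 had enough UMIs. Of these 4 were at least 2 times higher and none was lower by that much.

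Exhaustion factors were counted next. Batf was 2.72 times higher (1.63 to 4.38) and Cxcr6 2.57 times (0.996 to 5.90), which makes 2 of the 4 listed genes with enough UMIs, but Cxcr6 was 1.90 times higher when both sets had a ribosomal share of at least 10%. Tox, a factor of exhausted T cells, had a ratio of 1.13 (0.860 to 1.46), but 2.72 (1.98 to 3.70) in the same subset, where 9.55% of 5936 genes were at least 2 times higher. Tcf7, a factor of naive and memory cells, had 0.840 (0.675 to 1.04). Entpd1, the ectonucleotidase CD39, had 11 UMIs in 7 of 28 and 2 in 2 of 283 barcodes, and Eomes, a factor of effector and memory T cells, 7 UMIs in 2 of 28 and 2 in 2 of 283, both under the 20 UMI rule. Genes were also ranked by ratio, without the members and without T cell receptor, immunoglobulin, mitochondrial and ribosomal protein genes. Genes found in under 5 of the 28 barcodes were left out too. First came Lgals3 (34.9), Gpm6b (23.1), Anxa2 (15.4), S100a6 (15.1) and Maf, but 59 Lgals3 UMIs came from 5 barcodes. Lgals3 and Gpm6b, with 13 and 14 UMIs in the 283, reached 20 UMIs only through the 28 barcodes and so had to be higher.

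**Figure D5:**
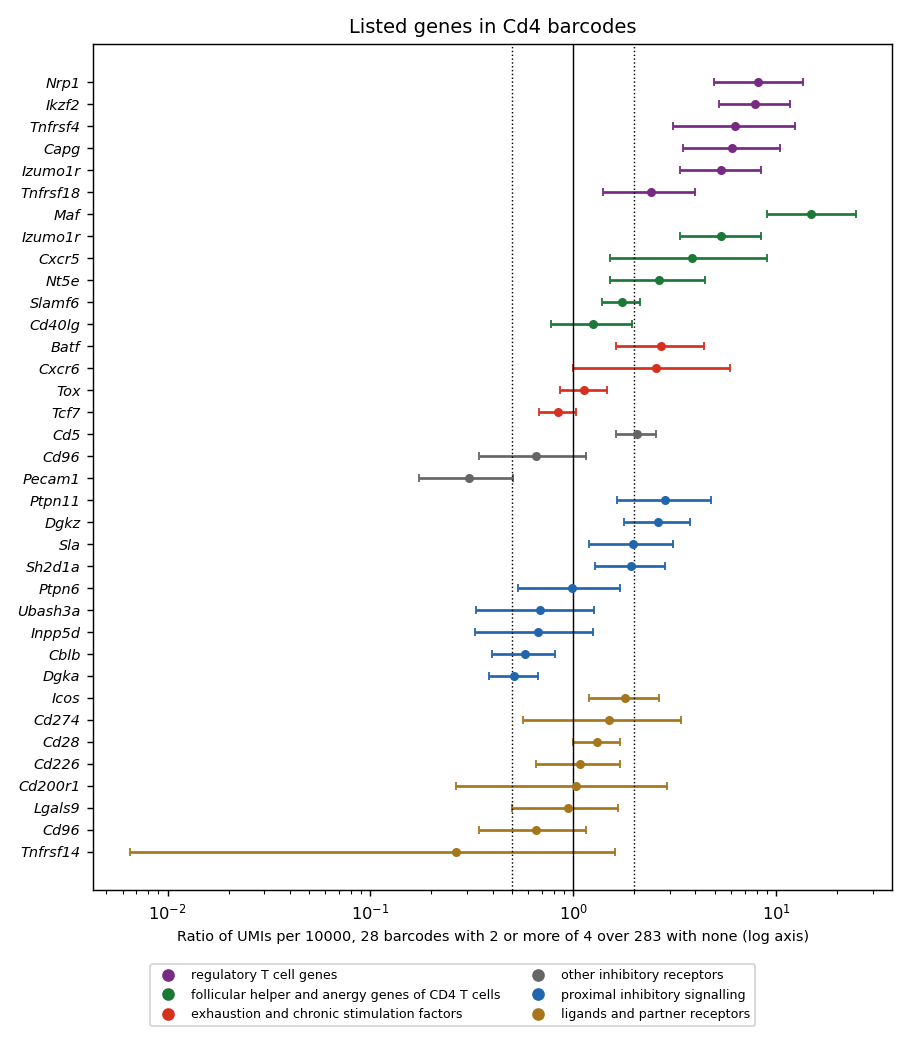
Ratio of UMIs per 10000 between the 28 Cd4 barcodes with 2 or more of Pdcd1, Ctla4, Lag3 and Tigit and the 283 with none, for listed genes with at least 20 UMIs in both sets together, with exact 95% intervals on a log axis and dotted lines at 0.5 and 2. Nrp1, Ikzf2 and Maf lie at 8.16, 7.85 and 14.8, and Tox at 1.13. Bcl6, with 0 UMIs in the 28 barcodes, is not drawn. The sets were not matched for ribosomal share.

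Genes that signal behind the receptors were counted in the same way. Among 9 listed genes of proximal inhibitory signalling, 2 were at least 2 times higher in the 28 barcodes, Ptpn11 with a ratio of 2.84 (1.63 to 4.75), which encodes the phosphatase SHP2 bound by PD-1, and Dgkz with 2.61 (1.78 to 3.75). Ptpn6, which encodes SHP1, had 0.987 (0.535 to 1.70). With a ribosomal share of at least 10% in both sets, 3 of the 9 were at least 2 times higher. Between Cd4 and granzyme-less Cd8 barcodes none of the 9 differed by 2 times, and their ratios lay between 0.793 and 1.87. In granzyme against granzyme-less Cd8 barcodes Ptpn11 (2.17) and Sh2d1a (3.66), which encodes the adaptor SAP, were higher. Among other inhibitory receptors, Cd5 was 2.05 times higher (1.63 to 2.57) in the 28 barcodes and Pecam1 was lower, with a ratio of 0.306 (0.173 to 0.504).

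Ligands and partner receptors were counted in the same classes. Of the 16 listed, 10 had enough UMIs between Cd4 and granzyme-less Cd8 barcodes, where 4 were at least 2 times higher and 1 lower, with a median ratio of 1.41 against 1.18 for all genes. Cd200r1, the receptor of Cd200, had 35 UMIs in Cd4 and 11 in granzyme-less Cd8 barcodes, a ratio of 9.12 (4.53 to 19.9). Cd200r1 reached 20 UMIs only through the Cd4 class and so had to be called higher. Cd28, which shares its ligands with Ctla4, had 4.11 UMIs per 10000 in Cd4 barcodes and was 2.43 times higher (2.17 to 2.72). It was lower in Foxp3 than in Cd4 barcodes, with 1.76 per 10000 and a ratio of 0.429 (0.275 to 0.640). Icos was 2.92 times higher (2.39 to 3.58) in Cd4 than in granzyme-less Cd8 barcodes. Cd226, the activating partner of Tigit, had 1.60 in Cd4 and 2.49 in granzyme-less Cd8 barcodes and was lower with granzyme, at 1.15 (ratio 0.464, 0.361 to 0.589). Cd274, which encodes the PD-1 ligand PD-L1, had 0.347, 0.350 and 0.348 UMIs per 10000 in Cd4, granzyme-less and granzyme Cd8 barcodes.

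For the 3 members with a UMI in at least 20 of the thinned Cd4 barcodes, genes were ranked by the ratio of their level between barcodes with and without the member. For Ctla4 (31 barcodes) the first 5 were Gpm6b (12.1), Cnih4 (7.65), Gprin3 (5.98), Pdcd1 (5.73, 2.48 to 12.9) and Nprl2 (5.10), out of 2836 genes ranked. For Btla (71 barcodes) they were St6galnac3 (6.07), Mrpl48, Pign, Sgf29 and Gm20275, and for Vsir (74 barcodes) Tigit (4.08, 1.64 to 10.7), Ciapin1, Depdc5, B3gat3 and Msh3. The share of 5500 genes that were at least 2 times higher with the member was 6.04% for Ctla4, 8.33% for Btla and 3.82% for Vsir. Some genes reached 20 UMIs only through barcodes with the member and so had to be higher. Among these were Gpm6b, Cnih4, Pdcd1 and Nprl2 for Ctla4, and Tigit for Vsir. Each gene named is the top of a long ranking over few barcodes of 1 library and is given as a description.

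Clonotypes, defined by the authors from the T cell receptor contigs, tied some of these barcodes to a common origin. In the Cd4 class 253 barcodes had a clonotype, of which 12 belonged to clonotypes of 2 or more barcodes and 241 to clonotypes of 1. Of the 12, 6 held 2 or more of Pdcd1, Ctla4, Lag3 and Tigit (50%, 21.1% to 78.9%), against 20 of 241 (8.30%, 5.14% to 12.5%). After thinning it was 4 of 9 (44.4%, 13.7% to 78.8%) against 12 of 198 (6.06%, 3.17% to 10.3%). The 12 barcodes came from 6 clonotypes and are not independent cells. In granzyme Cd8 barcodes the same shares were 10 of 43 in larger clonotypes (23.3%, 11.8% to 38.6%) and 19 of 52 in clonotypes of 1 (36.5%, 23.6% to 51.0%), with overlapping intervals.

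By level, 4 of the 7 members with enough UMIs were at least 2 times higher in the 12 Cd4 barcodes of larger clonotypes and none was lower by that much, where 12% of all 6884 genes were higher and 32.9% differed either way. Lag3 was 9.61 times higher (4.34 to 20.3), but its 12 UMIs all came from 1 clonotype. Tigit was 4.76 times higher (2.11 to 9.77), Pdcd1 3.61 times (1.55 to 7.48) and Ctla4 2.32 times (1.07 to 4.50). When the barcode with the most UMIs of the member was left out of both groups, Tigit was 3.06 and Ctla4 1.95 times higher. Leaving it out of the larger clonotypes alone was not done. As a mean over barcodes Ctla4 was 1.53 times higher. In granzyme Cd8 barcodes, by contrast, Cd160 was lower in larger clonotypes, with 2 against 22 UMIs and a ratio of 0.149 (0.0170 to 0.606). With 2 UMIs there, Cd160 reached 20 UMIs only through clonotypes of 1 and so had to be called lower. It was the only call among 5 members with enough UMIs, where 3.45% of all 4632 genes were higher and 5.14% lower by that much (8.59% in either direction). Pdcd1 (0.874, 0.445 to 1.65), Lag3 (1.53, 0.684 to 3.40), Tigit (1.71, 1.11 to 2.65) and Vsir (1.33, 0.868 to 2.03) stayed within 2 times.

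The CDR3 of the β chain, the most variable stretch of the T cell receptor, is shown for the 4 Cd4 clonotypes that held a barcode with Pdcd1, with the conserved first and last codon in capitals. They have 2 barcodes each and were chosen for display after their values had been seen.
TRBV13-1 to TRBJ2-7, 2 barcodes: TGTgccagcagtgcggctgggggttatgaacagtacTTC
TRBV5 to TRBJ2-7, 2 barcodes: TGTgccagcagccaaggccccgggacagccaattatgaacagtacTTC
TRBV10 to TRBJ1-3, 2 barcodes: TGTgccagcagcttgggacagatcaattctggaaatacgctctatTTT
TRBV19 to TRBJ1-6, 2 barcodes: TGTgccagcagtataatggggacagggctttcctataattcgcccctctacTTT
Both barcodes of the TRBV13-1 clonotype held Ctla4 and Lag3, with 2 and 8 UMIs in the first and 4 of each in the second, which also held 6 Tigit and 2 Pdcd1 UMIs. Both barcodes of the TRBV5 clonotype held Pdcd1, with 3 and 1 UMIs, together with 191 and 57 UMIs of the chemokine Ccl5 and 16 and 11 of Nkg7, genes of cytotoxic cells. Both barcodes of the TRBV19 clonotype held Pdcd1 with 1 UMI each, beside 2 Tigit UMIs in the first and 1 Ctla4 UMI in the second. In the clonotype joined from TRBV10 and TRBJ1-3, 1 barcode held 1 Pdcd1 and 3 Ctla4 UMIs and the other none of the 4. Of the 2 other Cd4 clonotypes, the 3 barcodes of the largest, joined from TRBV10 and TRBJ2-1, held 1 Tigit UMI, and the last held none of the 4.

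The receptors were then counted over granzyme Cd8 clonotypes. Counting only the 43 granzyme barcodes of 15 clonotypes of 2 or more barcodes, UMIs of Vsir were found in 13 clonotypes, Tigit in 8, Lag3 in 6, Ctla4 in 4, Pdcd1 in 3, Cd160 and Havcr2 in 2 each, Btla in 1 and Cd200 in 0. The largest clonotype, 9 barcodes joined from TRBV12-2 of which 6 held granzyme, held 5 Pdcd1 UMIs in 2 barcodes and 0 of Tigit and Lag3. The next, 8 barcodes joined from TRBV1, held 19 Tigit UMIs in 5, 10 Pdcd1 UMIs in 2 and 5 Lag3 UMIs in 2 barcodes. Of the other 4 clonotypes with 3 to 5 barcodes, those of 5 (TRBV15), 4 (TRBV12-2) and 3 (TRBV16) barcodes held Tigit in 4, 3 and 3 of them, and the clonotype of 4 barcodes joined from TRBV16 held none of Pdcd1, Ctla4, Lag3 or Tigit.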

How the data were processed

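Peripheral T cells of 1 vehicle-treated SCLC mouse were measured by droplet-based gene expression and T cell receptor sequencing. The authors deposited a matrix of unnormalised UMI counts that still holds barcodes without cells, made with Cell Ranger 4 (per the file header) on GRCm38 (per the submitters' processing notes), and a contig table with read and UMI counts and clonotypes. Contig counts were not used beyond clonotypes. The members and gene lists were chosen with earlier results of these data known.

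Barcodes with at least 1331 UMIs were kept, which is the 99th percentile of the 3000 deepest barcodes divided by 10. Levels are UMIs pooled over a class per 10000 UMIs. Ratios were formed for genes with at least 20 UMIs in both classes together and read at 2 times, with conditional binomial intervals. Shares were taken after thinning to 2500 UMIs with a fixed seed. Expected numbers of pairs are products of the separate shares. With 1 library there is no test and no p-value, and intervals and the floor of 3 counts cover counting error only. Doublets were predicted with Scrublet in Scanpy 1.11.5 (14 of 1600 barcodes, 0.875%) and kept. Named genes are the 9 members, the genes that set the classes and those of the lists. For each list 2 to 4 genes with most UMIs or the largest ratio were to be given. Several lists have more, such as Itgae among regulatory T cell genes, and these fall outside that rule. For members found in at least 20 thinned Cd4 barcodes, the 5 genes with the largest ratio were added, and clonotypes of 3 or more barcodes are named. Lgals3, Anxa2, S100a6, Ccl5, Nkg7, Il21, Bcl6, Entpd1, Eomes and the clonotypes of 2 barcodes were named after their values had been seen. The steps were tested on simulated counts with known folds. The simulated counts were Poisson draws for whole classes. They left out UMIs that gather in single barcodes, so whether the intervals hold for such counts was not tested. Calculations used Python 3.11.15, NumPy 2.4.6, SciPy 1.17.1 and pandas 2.3.3. Alternatives were other UMI limits, clonotyped barcodes, a ribosomal share of at least 10%, a Cd3 UMI, removal of predicted doublets, stricter Foxp3 and coreceptor rules, other thinning, means over barcodes, subtraction of free RNA and other clonotype rules. Taking 1 barcode per clonotype, and leaving out the barcode with most UMIs of a member from each group compared, were chosen after seeing the data.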

Additional observations from a re-analysis of the deposited data

Results flagged for a closer look

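UMIs of the members were also found in barcodes with markers of other cells and in barcodes with a Cd3 UMI and neither coreceptor. Only the latter lie outside the 4 classes by rule. Barcodes chosen by markers of other cells were not limited to those outside the classes, so the comparisons may have used some of them. Each value below exceeded the limit of 3 counts that marks a count of 0, and no control sample was available. In the 79 barcodes with Cd79a and Cd79b UMIs and no Cd3 UMI, which served as B cells, there were 153 Btla, 21 Cd200, 11 Vsir and 4 Ctla4 UMIs. Btla, with 4.80 UMIs per 10000 (4.07 to 5.62), was higher there than in any of the 4 T cell classes, as was Cd200, with 0.659 (0.408 to 1.01) against 0.383 (0.287 to 0.501) in Cd4 barcodes, although the intervals of Cd200 overlapped. Vsir, at 0.345 (0.172 to 0.617), was lower than in the T cell classes.

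In the 20 barcodes with Csf3r and Retnlg UMIs, genes of neutrophils, Vsir had 17 UMIs, or 2.66 per 10000 (1.55 to 4.27). In the 14 barcodes with a UMI of the natural killer cell gene Ncr1 and no Cd3 UMI it had 11. In the 256 barcodes with a Cd3 UMI and neither coreceptor there were 129 Vsir, 116 Btla, 33 Cd160, 19 Ctla4, 18 Pdcd1, 12 Cd200, 9 Tigit and 4 Lag3 UMIs. Cd160 had 0.367 UMIs per 10000 there (0.253 to 0.516), which lay within the interval of granzyme Cd8 barcodes (0.243 to 0.564).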

How the results depend on the processing

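Ratios of members that differed by at least 2 times gave 257 values over the other settings, of which all had the same direction and 5 were under 2 times. Only ratios with UMIs in both groups gave a value, so a fall to 0 is not among them. With at least 3 barcodes per larger clonotype, the Cd4 class kept 2 barcodes of a single clonotype. These held 0 UMIs of Pdcd1, Ctla4 and Lag3, which had been called higher, so the direction of these calls did not hold there. Stricter Foxp3 rules could not move the ratios that do not use the Foxp3 class. With only 1 library, its depth limits what can be seen: the Foxp3 class has 32 barcodes, and receptors with under 20 UMIs in both classes together were given no ratio. No paired analysis was possible because the design holds 1 library and no groups to pair.

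The share with any member moved with depth. Without thinning it was 72.3% in Cd4, 75.0% in granzyme-less Cd8 and 88.7% in granzyme Cd8 barcodes, and 31.1% of Cd4 barcodes held 2 or more members. Thinned to 1500 UMIs these were 45%, 35.7%, 52.8% and 11.4%. Any member was found in 63.8% of Cd4 barcodes with a clonotype and in 54.2% of granzyme Cd8 barcodes with 1 barcode per clonotype. The Foxp3 class moved most. With at least 2 Foxp3 UMIs, 8 of 9 barcodes held any member (88.9%, 51.8% to 99.7%) and 6 held 2 or more (66.7%, 29.9% to 92.5%). With a Cd4 UMI asked for, 5 of 12 held any (41.7%, 15.2% to 72.3%) and 2 held 2 or more (16.7%, 2.09% to 48.4%). These wide intervals overlap those of the whole Foxp3 class. The number of members that differed by 2 times between Foxp3 and Cd4 barcodes was 5 in place of 3 with a Cd4 UMI asked for, at a ribosomal share of at least 10%, with at least 2 coreceptor UMIs, and without the barcode with most UMIs of the member. In larger clonotypes of granzyme Cd8 barcodes it was 2 in place of 1 when these had at least 3 barcodes. The share of all genes past 2 times was not counted under these settings, so these numbers are no result about the members. The cause was not tested. The other 120 of 139 counts and shares stayed within their interval or within 1.5 times. A count can stay while its members change. With at least 3 barcodes per larger clonotype, 6 of 7 members in place of 4 differed in the Cd4 class, with Pdcd1, Ctla4 and Lag3 at 0 UMIs. That count rests on 2 barcodes of a single clonotype, and the share of all genes was not counted there either. Some counts and shares could not move. Limits of 1000 and 2500 UMIs left the barcodes thinned to 2500 UMIs unchanged, and stricter Foxp3 rules left the Cd4 and Cd8 classes unchanged. The share of Cd4 barcodes with 2 or more of Pdcd1, Ctla4, Lag3 and Tigit lay between 3.13% and 8.92%.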
